A study of Homo sapiens with 4 samples.

Results

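The ERBB (HER) receptors and their ligands were examined in SKBR3, an established human breast cancer cell line with amplified ERBB2 (HER2). The set was defined by gene name, with no threshold on measured values: the 4 receptors EGFR, ERBB2, ERBB3 and ERBB4, and the 6 ligands AREG, EREG, BTC, HBEGF, TGFA and NRG1, together 10 of the 56271 genes in the table. Poly-A RNA was sequenced in 2 eGFP control libraries and 2 VIRMA-overexpressing libraries, described in the study as biological duplicates. Both groups carried a lentiviral vector with the human ubiquitin C promoter. The controls expressed eGFP alone, and the VIRMA-overexpressing cells expressed HA-tagged full-length VIRMA with eGFP released through a p2A peptide. In both groups eGFP-positive cells were collected by flow sorting and expanded, so each group was a pool of transduced cells and not a single clone, and VIRMA and any other difference between the pools cannot be told apart. In such bulk RNA, fewer cells that express a gene and less RNA of it per cell cannot be told apart either. The culture text in the labels mentions a low-oxygen chamber whereas the study describes ordinary culture for RNA sequencing, so the oxygen level is uncertain and is taken as shared by both groups.

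ERBB receptors are receptor tyrosine kinases at the cell surface. Ligand binding opens the extracellular part of EGFR, ERBB3 or ERBB4 and lets receptors pair, after which the kinase domains phosphorylate the receptor tails and recruit adaptors of the RAS-MAPK and PI3K-AKT pathways. ERBB2 has no known soluble ligand and is the preferred partner of the other receptors, whereas ERBB3 has a weak kinase and depends on its partner. AREG and TGFA bind EGFR, EREG, BTC and HBEGF bind EGFR and ERBB4, and NRG1 binds ERBB3 and ERBB4. In HER2-amplified breast cancer the ERBB2-ERBB3 pair is a main source of PI3K-AKT signalling.

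VIRMA is a scaffold of the complex that writes N6-methyladenosine on RNA, and the comparison asks which transcripts differ when it is raised. VIRMA, listed as KIAA1429, had control counts of 710 and 682 against 3437 and 3460 in VIRMA-overexpressing cells (log2 fold change 2.29, SE 0.069, edgeR adjusted p = 9.74e-26). Library totals were between 81446932 and 86375474 counts. Of the 12205 genes with RPKM (reads per kilobase of exon, scaled to library size) above 1 in at least 2 libraries, 35.1% were higher with VIRMA overexpression and 35.9% lower, at an adjusted p below 0.05. The shares past a log2 fold change of 1 or -1 as well were 4.52% and 2.93%. The keratin KRT19, a luminal epithelial marker, was abundant (509004 to 555015 counts), and 8 of 11 luminal markers passed the filter. The luminal markers CDH1 (5 to 33 counts), ESR1 (24 to 48 counts) and PGR (0 counts) were at or near 0. HBB, a globin gene and the one erythroid marker of 7 past the filter, had control counts of 2137 and 1543 against 0 and 0. The summed CPM (counts scaled to library size) of 7 erythroid markers was 28.0 and 20.2 against 0.478 and 0.323. That of 5 endothelial markers, led by CDH5, was between 6.51 and 8.95 per library, that of 7 leukocyte markers, led by CD3E, between 2.02 and 4.33, and that of 10 fibroblast markers, led by COL1A1, 14.3 and 13.9 in controls against 8.84 and 9.46. The part of such differences between the cell pools in the results below was not tested.

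ERBB2, ERBB3 and EGFR were expressed and showed no called difference between the groups. Of the 10 receptors and ligands these 3 passed the RPKM filter, 6 had counts but lay under it, and NRG1 had none. At the adjusted p, 0 of the 3 tested receptors were higher and 0 lower, beside the 35.1% and 35.9% of all tested genes, and 0 had an unadjusted p below 0.05 in edgeR. DESeq2 and limma-voom called 0 of the 3 as well, but with the looser filter of filterByExpr ERBB2 was called lower (log2 fold change -0.045, edgeR adjusted p = 0.0303).

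**Figure D1:**
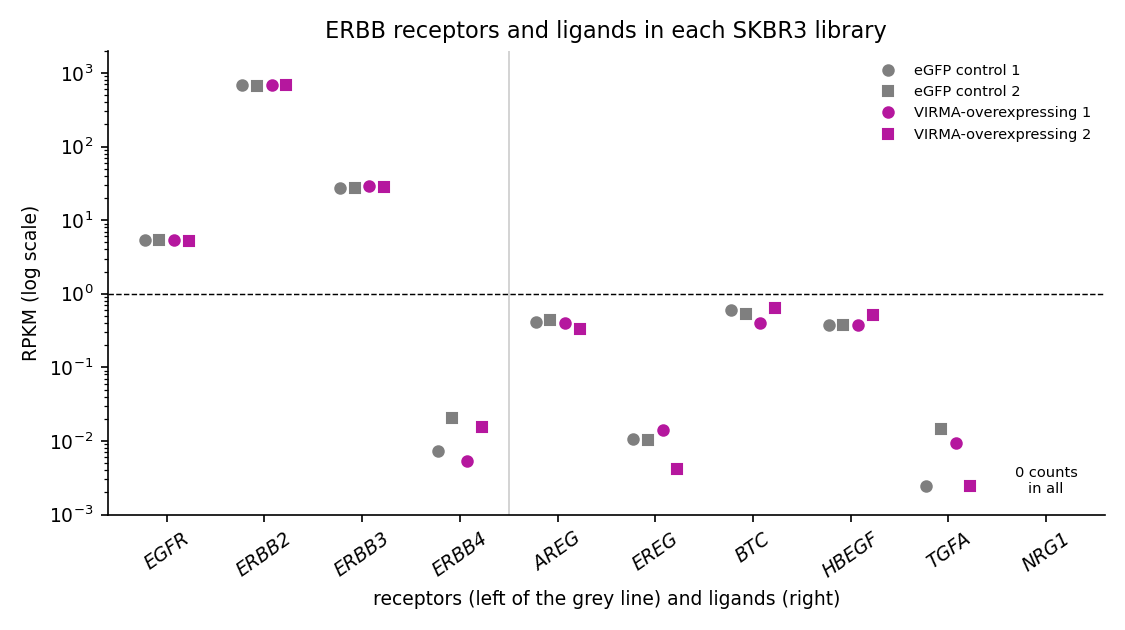
RPKM on a log axis of each receptor and ligand in the 4 libraries; grey points are eGFP control and magenta points VIRMA-overexpressing libraries, circles replicate 1 and squares replicate 2, and the dashed line marks the filter at 1 RPKM. ERBB2, ERBB3 and EGFR lie above the line in every library, while ERBB4 and all 6 ligands lie below it.

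ERBB2 (GRCh38 chromosome 17, 39687914 to 39730426, plus strand) was the most abundant receptor. Its control counts of 590337 and 580259 compare with 600215 and 586044 in VIRMA-overexpressing cells, or 688 and 672 against 679 and 679 RPKM. Both VIRMA-overexpressing values lay between the control values, and ERBB2 held rank 55 of all genes by control RPKM. The mean was 7021 ± 116 CPM in controls and 7005 ± 2.22 CPM in VIRMA-overexpressing cells (SD, n = 2 each). The log2 fold change was -0.0011 (SE 0.0199, 95% interval -0.042 to 0.039, edgeR adjusted p = 0.963), and 0.164% of tested genes had a smaller absolute change. The interval corresponds to 0.972-fold to 1.03-fold.

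ERBB3 (chromosome 12, 56079857 to 56103505, plus strand), the kinase-impaired partner, had 19601 and 19869 counts in controls against 21360 and 20188, or 27.24 and 27.44 against 28.79 and 27.88 RPKM. Both VIRMA-overexpressing libraries were above both controls, as groups failed to overlap for 84.3% of all tested genes. The log2 fold change of 0.05 (SE 0.0312, 95% interval -0.010 to 0.117) did not pass the test (edgeR adjusted p = 0.123). An increase above 1.08-fold lay outside the interval, which does not cover the dependence on library scaling given below.

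EGFR (chromosome 7, 55019021 to 55211628, plus strand), the receptor of most EGF-type ligands, had 5660 and 5664 counts in controls against 5850 and 5468, or 5.443 and 5.414 against 5.456 and 5.225 RPKM. The VIRMA-overexpressing libraries lay on either side of the controls. The log2 fold change was -0.02 (SE 0.0408, 95% interval -0.104 to 0.062, edgeR adjusted p = 0.653), an interval of 0.93-fold to 1.04-fold.

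The bounds of these 3 intervals were smaller in size than the median absolute log2 fold change of all tested genes, 0.335. The ERBB2 interval lay wholly within ±0.1, as did the 95% interval of 1.21% of tested genes. Those of ERBB3 (up to 0.117) and EGFR (down to -0.104) reached beyond ±0.1. The direction and the call depended on the scaling. With upper-quartile factors or library totals in place of TMM (trimmed mean of M values), the median of tested genes moved by 0.072 and 0.086. ERBB2 was then 0.07 (adjusted p = 0.00144) and 0.085 (adjusted p = 0.000269), ERBB3 0.125 (adjusted p = 0.000576) and 0.139 (adjusted p = 0.000206), and EGFR 0.05 and 0.064, not called. Relative to the median of the same tested genes, ERBB2 stayed between -0.013 and -0.009, EGFR between -0.034 and -0.029 and ERBB3 between 0.041 and 0.046 in the 10 fits that kept all 4 libraries.

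**Figure D2:**
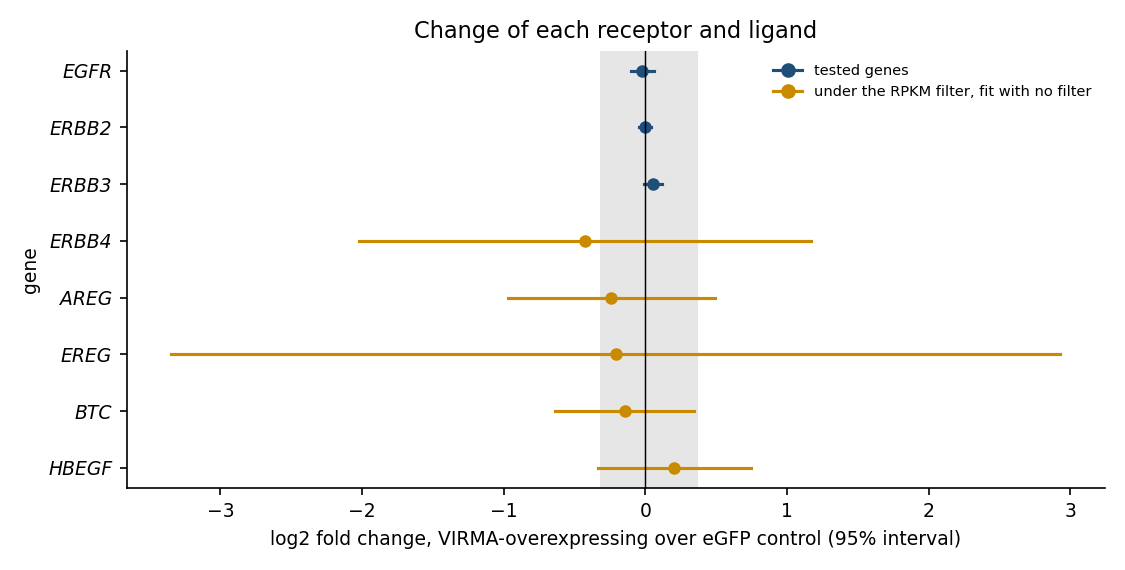
Log2 fold change (VIRMA-overexpressing over eGFP control) of each receptor and ligand with its 95% interval from edgeR; the grey band spans the lower to upper quartile of all tested genes, -0.311 to 0.363. The 3 tested receptors lie close to 0 with short intervals, and the scarce transcripts have intervals that cross 0 and reach beyond the band; TGFA and NRG1 are left out for lack of counts.

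The makeup of the receptor pool differed little between the groups. Per kilobase, ERBB2 made up 95.47% and 95.34% of the summed receptor RPKM in controls against 95.2% and 95.35%. ERBB3 made up 3.779% and 3.892% against 4.038% and 3.915%, and EGFR 0.755% and 0.768% against 0.765% and 0.734%. The ERBB3 share was slightly higher in both VIRMA-overexpressing libraries than in either control, and the ERBB2 and EGFR shares overlapped. The ratio of ERBB2 to its partner ERBB3, per kilobase, was 25.3 and 24.5 in controls against 23.6 and 24.4. Both VIRMA-overexpressing ratios were thus below both controls, by a small margin. Share and ratio restate the ERBB3 separation above. Groups failed to overlap for 84.3% of all tested genes, and ERBB3 was not called. The ratio of ERBB2 to EGFR was 126 and 124 against 124 and 130, and here the groups overlapped. These ratios are free of the library scaling.

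ERBB4 (chromosome 2, 211375717 to 212538841, minus strand), a receptor of neuregulins, was near the limit of detection. It had 8 and 22 counts in controls against 6 and 17, so that each replicate pair differed more than the groups did. The log2 fold change in a fit of all 33976 genes without the RPKM filter was -0.43 (95% interval -2.02 to 1.17, edgeR adjusted p = 0.755). The interval holds a change of 2-fold in either direction.

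All 6 ligand genes lay below 1 RPKM in every library, and together they reached 1.394 and 1.368 RPKM in controls against 1.205 and 1.484. The summed receptor RPKM was 720.9 and 705.2 against 712.8 and 712.0. In the fit without filter, 14.4% of genes were higher and 15.3% lower at the adjusted p; of the 6 scarce receptors and ligands, 0 were called in either direction and 0 had an unadjusted p below 0.05. Groups did not overlap for 2 of these 6, AREG and HBEGF, beside 53.9% of all genes in that fit. The nearest libraries of the 2 groups were at 0.674 and 0.653 CPM for AREG and at 1.143 CPM in both for HBEGF.

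BTC (betacellulin; chromosome 4, 74744759 to 74794686, minus strand), AREG (amphiregulin; chromosome 4, 74445134 to 74455009, plus strand) and HBEGF (chromosome 5, 140332843 to 140346631, minus strand) supplied most ligand counts. BTC had 139 and 125 counts in controls against 98 and 149, and the controls lay between the VIRMA-overexpressing libraries (log2 fold change -0.15, 95% interval -0.64 to 0.34, edgeR adjusted p = 0.721). AREG had 56 and 60 counts against 56 and 46 (log2 fold change -0.24, 95% interval -0.97 to 0.49, edgeR adjusted p = 0.718). HBEGF, which is also the receptor of diphtheria toxin, had 95 and 95 counts against 98 and 129 (log2 fold change 0.20, 95% interval -0.34 to 0.74, edgeR adjusted p = 0.676). The higher HBEGF mean came from 1 library, as the log2 fold change was -0.03 without VIRMA-overexpressing replicate 2. The RPKM ranges of BTC (0.406 to 0.633), AREG (0.334 to 0.435) and HBEGF (0.376 to 0.511) overlapped; BTC was the highest of these in every library, and the order of AREG and HBEGF differed between libraries.

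EREG (epiregulin; chromosome 4, 74365143 to 74388751, plus strand) had 5 and 5 counts in controls against 7 and 2 (log2 fold change -0.21, 95% interval -3.35 to 2.93, edgeR adjusted p = 0.948). TGFA (chromosome 2, 70447280 to 70554193, minus strand) had 1 and 6 counts against 4 and 1, for which no fold change is given. NRG1 (chromosome 8, 31639386 to 32767959, plus strand), the ERBB3 ligand, had 0 counts in all 4 libraries, which allows a level of up to 0.0368 CPM per library (3 counts, counting error only). AREG, EREG and BTC share a stretch of chromosome 4 and were all scarce, but AREG and BTC were above EREG in RPKM in every library.

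Among 5 further EGF-family ligands, 2 passed the filter, of which 1 was higher and 0 lower, beside 35.1% and 35.9% of all tested genes. NRG2, a neuregulin of ERBB3 and ERBB4, had 1097 and 1143 counts in controls against 1391 and 1327, with both VIRMA-overexpressing libraries above both controls (log2 fold change 0.26, SE 0.0793, edgeR adjusted p = 0.00424). Groups failed to overlap for 84.3% of all tested genes. NRG2 was the most abundant ligand measured, at 2.972 ± 0.0734 RPKM in controls and 3.55 ± 0.0571 in VIRMA-overexpressing cells (SD, n = 2 each). EGF, at 1.762 ± 0.142 and 1.916 ± 0.105 RPKM, did not pass the test (log2 fold change 0.12, edgeR adjusted p = 0.238). Under the filter, NRG4, a ligand of ERBB4, had 29 and 48 counts in controls against 8 and 12 and was lower in the fit without filter (log2 fold change -1.98, 95% interval -3.17 to -0.80, edgeR adjusted p = 0.00417). EPGN (epigen) had 60 and 72 counts against 87 and 89 (edgeR adjusted p = 0.497), and NRG3 had 0 and 0 against 0 and 5.

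Of 8 genes for ligand shedding, 7 were tested, of which 2 were higher, 2 lower and 3 not called, with a median log2 fold change of -0.007, which was above 0 under other scalings, beside 0.012 for all tested genes, of which 71.0% were called. ADAM17, the main protease that releases EGFR ligands, had a log2 fold change of 0.17 (edgeR adjusted p = 0.0635), and ADAM10, which releases EGF and BTC, of -0.01 (edgeR adjusted p = 0.915), also with no stable direction. The inactive rhomboids, which carry ADAM17 to the surface, moved apart: RHBDF1 rose by 0.24 and RHBDF2 fell by 0.46 on the log2 scale. ADAM19 rose by 0.17 and ADAM15 fell by 0.09, and the ADAM15 call was lost under other scalings.

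**Figure D3:**
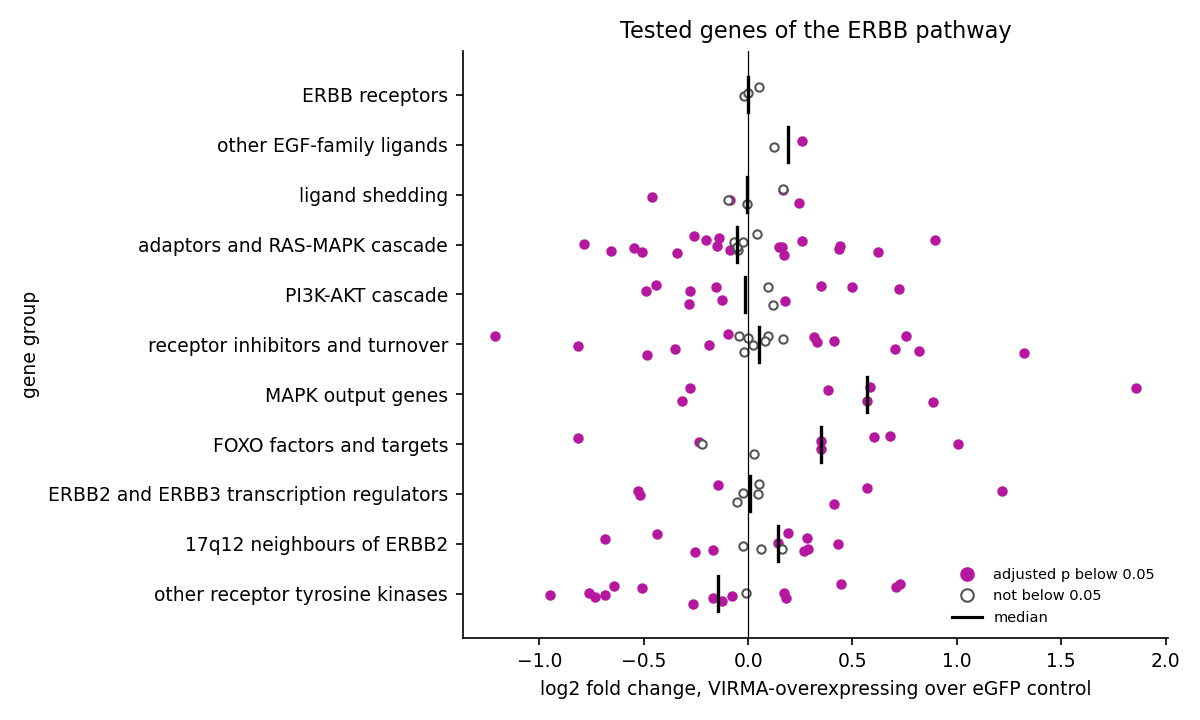
Log2 fold change (VIRMA-overexpressing over eGFP control) of each tested gene in the receptor set and in 10 lists of ERBB pathway genes; filled points have an adjusted p below 0.05, open points do not, and the black bar is the median. The 3 receptors lie together at 0, while genes of most lists spread to both sides and the MAPK output genes have a median of 0.571.

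Downstream of the receptors, genes moved in both directions. Of 25 adaptors and RAS-MAPK genes, 23 were tested, of which 8 were higher, 10 lower and 5 not called (median -0.052, above 0 under other scalings), beside the 35.1% and 35.9% of all genes. The RAS exchange factors SOS1 and SOS2 rose by 0.89 and 0.62 on the log2 scale, and the adaptor NCK1 by 0.44. PLCG1 (phospholipase C gamma 1), SRC and MAPK3 (ERK1) fell by 0.79, 0.66 and 0.54. GRB2, the adaptor that brings SOS proteins to the receptor, was looked up after its value was known and fell by 0.51, from 10398 and 10235 counts to 7298 and 7422.

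SOS1 went from 2518 and 2596 to 4860 and 4772 counts, and PLCG1 from 5360 and 5401 to 3113 and 3218. In each case the groups were far apart relative to the spread within them, unlike the receptors.

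Of 17 PI3K-AKT genes, 12 were tested, of which 4 were higher and 6 lower (median -0.016, above 0 under other scalings), beside 35.1% and 35.9% of all tested genes. TSC1, an inhibitor of mTOR complex 1, rose by 0.72 on the log2 scale, and RICTOR, the defining subunit of mTOR complex 2, by 0.50. The PI3K subunits PIK3CD and PIK3R3 fell by 0.49 and 0.44, and RPTOR, the defining subunit of mTOR complex 1, by 0.29. No PI3K-AKT or RAS-MAPK gene tested passed a log2 fold change of 1 or -1 (0 of 12 and 0 of 23), beside 4.52% and 2.93% of all tested genes past both thresholds.

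Genes that restrain ERBB receptors or set their turnover were called about as often as other genes, and among them ERRFI1 rose and HSP90AA1 fell. Of 23 listed, 20 were tested, of which 7 were higher, 6 lower and 7 not called (median 0.052), near the 71.0% of all tested genes called. Past both thresholds were 1 higher and 1 lower, near the 4.52% and 2.93% of all genes, and with 3 looser filters the number higher was 3. ERRFI1 (MIG6), which binds and blocks the kinase domain of EGFR and ERBB2, had 3952 and 4212 counts in controls against 10421 and 10305. Its level went from 48.96 ± 1.99 to 122.4 ± 1.14 CPM (SD, n = 2 each; log2 fold change 1.32, SE 0.0398, edgeR adjusted p = 1.09e-25). The ratio of ERRFI1 to EGFR, per kilobase, was 2.09 and 2.22 in controls against 5.32 and 5.63, free of library scaling.

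HSP90AA1, a chaperone that ERBB2 protein needs to stay stable, had 48483 and 49043 counts in controls against 21431 and 21225. Its level fell from 584.9 ± 2.22 to 251.9 ± 2.62 CPM (SD, n = 2 each; log2 fold change -1.21, SE 0.0293, edgeR adjusted p = 1.32e-28). The paralog HSP90AB1 went from 83249 and 83250 to 48725 and 47167 counts (log2 fold change -0.82, edgeR adjusted p = 1.4e-24). Both paralogs are close in sequence and have processed pseudogenes, and the treatment of reads with several alignments is not stated, so the split between them is uncertain. STUB1 (CHIP), a ubiquitin ligase that works with chaperones on ERBB2, fell by 0.48.

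PTPN12, a phosphatase that acts on ERBB2 and EGFR, rose by 0.82 on the log2 scale, and LRIG2 by 0.76. LRIG1, an inhibitor that promotes loss of ERBB receptors, had a log2 fold change of -0.04 (edgeR adjusted p = 0.548), with no stable direction across settings. ERBIN, which binds the ERBB2 tail, rose by 0.33. CBLB, a ubiquitin ligase for EGFR, lay under the filter and was picked after its values were seen: it had 374 and 336 counts in controls against 924 and 751 (log2 fold change 1.18 in the fit without filter, edgeR adjusted p = 4.22e-21).

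The MAPK output genes, a list of feedback regulators and targets often used to read ERK activity, had 7 of 10 members tested, of which 5 were higher, 2 lower and 0 not called, beside 35.1% and 35.9% of all tested genes. Their median log2 fold change was 0.571, beside 0.012 for all tested genes. The lists were chosen with earlier results of these data known, so this median is a description and not a test. DUSP6, the ERK phosphatase, had 202 and 213 counts in controls against 725 and 801 (log2 fold change 1.86, SE 0.137, edgeR adjusted p = 1.99e-14), the single member past both thresholds. Without eGFP control replicate 1, and with 3 looser filters, 2 members were past both. SPRY2 had 259 and 209 counts against 431 and 447 (log2 fold change 0.89), and SPRY4 2809 and 2706 against 4179 and 4211 (log2 fold change 0.59).

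The Sprouty proteins SPRY2 and SPRY4 restrain receptor signalling to RAS. The other members that rose, named after their values were seen, were the ETS factor ETV4 by 0.57 on the log2 scale and the phosphatase DUSP4 by 0.38. CCND1 (cyclin D1) fell by 0.32 and EPHA2 by 0.28, so the list did not move one way. PHLDA1, under the filter and picked after its values were seen, had 124 and 107 counts in controls against 397 and 320. The other members under the filter, also looked up after values were seen, were not called in the fit without filter. EPHA4 had 111 and 105 counts against 114 and 110 (edgeR adjusted p = 0.995). ETV5 had 14 and 1 against 14 and 22 (edgeR adjusted p = 0.364). No phosphorylation of ERK was measured in these libraries.

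The list of FOXO factors and targets holds FOXO genes themselves and genes that AKT signalling holds down through FOXO proteins. Of 14 listed, 9 were tested, of which 5 were higher and 2 lower (median 0.349), beside 35.1% and 35.9% of all tested genes. BCL6, a transcriptional repressor, rose by 1.00, INSR (insulin receptor) by 0.68 and CDKN1B (p27) by 0.61 on the log2 scale, while KLF6 fell by 0.81 and PIK3IP1 by 0.24. The median depended on the filter: with 3 looser filters it lay between -0.099 and -0.085.

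Of 13 transcription regulators of ERBB2 and ERBB3, 10 were tested, of which 3 were higher, 3 lower and 4 not called (median 0.011), beside 71.0% of all tested genes called. The ETS factors EHF and ELF3 rose by 1.21 and 0.57 on the log2 scale, and the co-repressor CTBP2 by 0.41. PA2G4 (EBP1, an ERBB3-binding protein) fell by 0.53, MYB by 0.52 and CTBP1 by 0.14, the last call being lost under other scalings. EHF had 628 and 768 counts in controls against 1664 and 1622.

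The neighbours of ERBB2 on 17q12, a region often co-amplified with it, differed in both directions. Of 17 listed, 13 were tested, of which 6 were higher, 4 lower and 3 not called (median 0.144), close to the 71.0% of all tested genes called in either direction. GRB7, an adaptor that binds ERBB2 and lies close downstream of it, had 64246 and 63910 counts in controls against 88183 and 86734. Its level went from 768.6 ± 6.18 to 1033 ± 5.68 CPM (SD, n = 2 each; log2 fold change 0.43, SE 0.0262, edgeR adjusted p = 1.11e-16). PSMD3, a proteasome subunit 292.9 kb away, had 90521 and 90592 counts against 57377 and 56903 (log2 fold change -0.68, edgeR adjusted p = 1.85e-22).

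The ratio of GRB7 to ERBB2, per kilobase, was 0.312 and 0.316 in controls against 0.422 and 0.425, and that of PSMD3 to ERBB2 was 0.319 and 0.325 against 0.199 and 0.202. MED1 and PGAP3 rose by 0.29 and 0.28 on the log2 scale, and ORMDL3 and PPP1R1B fell by 0.43 and 0.26. Exons of PGAP3 share 194 bases with ERBB2 on the opposite strand and those of MIEN1 share 571. This is 5.29% and 24.9% of these genes, and 1.88% and 5.53% of the exonic bases of ERBB2. The strand setting of the counting is not stated. Reads in the shared bases may therefore have been counted for ERBB2, for the overlapping gene or for neither.

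**Figure D4:**
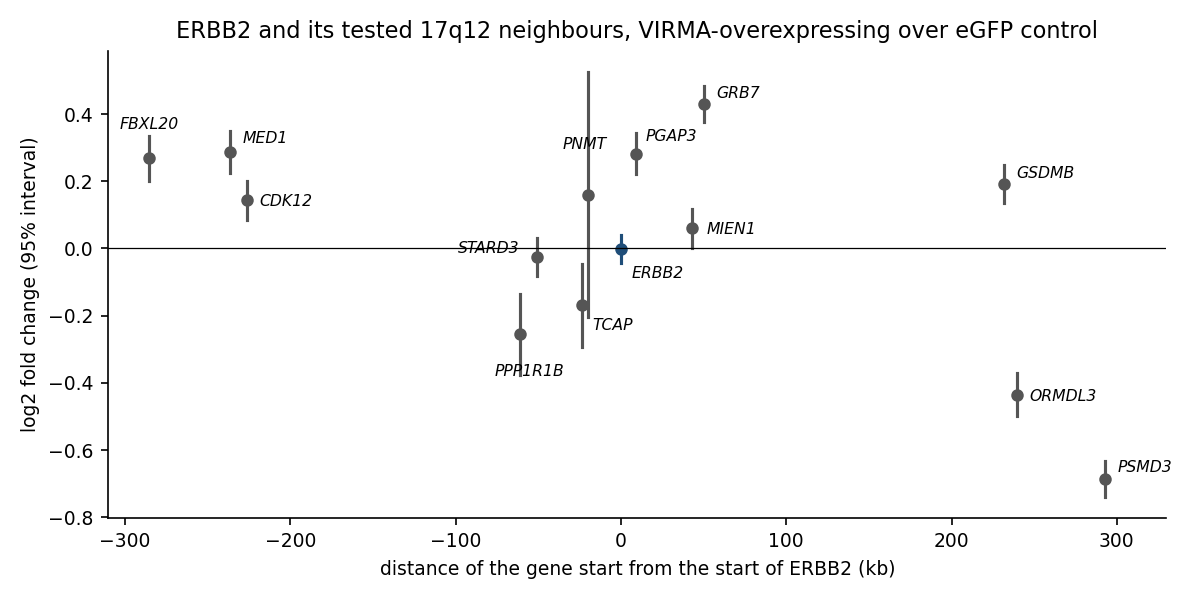
Log2 fold change (VIRMA-overexpressing over eGFP control, with 95% interval) of ERBB2, in blue, and its 13 tested 17q12 neighbours against the distance of their start from that of ERBB2 in kilobases. ERBB2 sits at 0, with GRB7 above it at 0.43 and PSMD3 at the right edge at -0.68.

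MIR4728, a microRNA gene inside ERBB2, rose while ERBB2 itself showed no called difference. It was picked after its values were seen. It lies at chr17:39726495-39726561 on the plus strand, in an intron of all 7 GENCODE transcripts of ERBB2 that span it, 144 bases after the upstream exon and 1 base before the downstream exon. Its sequences (RefSeq, GRCh38.p14) are shown because it is the feature within the receptor gene whose count changed. Capitals mark the seed, bases 2 to 8 of each mature arm.
MIR4728 hairpin: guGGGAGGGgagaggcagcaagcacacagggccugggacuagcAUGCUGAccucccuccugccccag
hsa-miR-4728-5p: uGGGAGGGgagaggcagcaagca
hsa-miR-4728-3p: cAUGCUGAccucccuccugccccag

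MIR4728 had 186 and 163 counts in controls against 264 and 320, with both VIRMA-overexpressing libraries above both controls (log2 fold change 0.72, SE 0.188, edgeR adjusted p = 0.00091). Groups failed to overlap for 84.3% of all tested genes. The ratio of MIR4728 to ERBB2, per kilobase, was 0.0485 and 0.0433 against 0.0678 and 0.0841. The reads are from poly-A RNA with fragments far longer than a mature microRNA, so the count cannot be told apart from unspliced ERBB2 RNA and says nothing of the level of either mature arm.

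Other receptor tyrosine kinases are given for comparison with the ERBB receptors; the difference between the lists was not tested. Of 41 listed, 16 were tested, of which 5 were higher, 10 lower and 1 not called (median -0.146), beside 35.1% higher and 35.9% lower of all tested genes. FGFR1 rose by 0.73, PTK7 by 0.71 and MET, a known partner of ERBB signalling, by 0.44 on the log2 scale. CSF1R fell by 0.95, TYRO3 by 0.76 and EPHB6 by 0.73.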

How the data were processed

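Per the authors' methods, RNA of 4 SKBR3 cultures was made into stranded poly-A libraries and sequenced as paired ends. The authors trimmed reads with Trimmomatic 0.39, aligned them to hg38 with STAR 2.5.2a and counted them with featureCounts. The file they deposited gives unnormalized counts and exonic lengths for each gene. Strand setting and handling of reads with several alignments are not given in the sources used here. The VIRMA-overexpressing columns bear only a code and were taken to be the group that the named control columns leave; the VIRMA count checks this.

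Genes with RPKM above 1 in at least 2 libraries were tested with edgeR 4.0.16 (R 4.3.3): quasi-likelihood test, TMM, group as sole term, Benjamini-Hochberg adjustment over 12205 genes. Genes under the filter were read from a fit of 33976 genes. CPM and RPKM shown use TMM-scaled library sizes. Intervals are 95% from the fit. Gene spread was a biological coefficient of variation of 3.93%; for 2 against 2, an exact permutation test cannot go below 0.33. The fit was run on simulated counts of 12205 genes with 200 changed, as many up as down. It called 91.5% of the changed genes and 4 unchanged genes. The simulation held no shift in scaling and far fewer changes than the data, so it cannot speak to the dependence on scaling. The replicates' p-values cover the spread between these libraries.

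The members and lists were chosen with earlier results of these data known. Named genes were all members, VIRMA (listed as KIAA1429), the other EGF-family ligands, ADAM10, ADAM17, ERRFI1, LRIG1, GRB7 and ERBIN, the highest gene of each marker list, and per list up to 3 called genes with the highest and 3 with the lowest log2 fold change. A gene that this rule takes is not reported here. The text marks others, and CDH1, ESR1, PGR and MIEN1 were added after values were seen. Alternatives were DESeq2 1.42.0, limma-voom (limma 3.58.1), 3 scalings, 3 filters, a replicate block, a 2-fold test and leaving out each library.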

Additional observations from a re-analysis of the deposited data

How the results depend on the processing

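For receptors, ligands, receptor shares and all-gene counts, 93 values stayed on the same side as reported in alternatives that keep all libraries. Another 16 moved, 4 reversed, and 3 kept their sign and newly passed the threshold. These last 3 kinds follow, and the cause was not tested. With upper-quartile factors, EGFR was 0.05, ERBB2 0.07 (edgeR adjusted p = 0.00144) and ERBB3 0.125 (edgeR adjusted p = 0.000576) on the log2 scale. With library totals, they were 0.064, 0.085 (edgeR adjusted p = 0.000269) and 0.139 (edgeR adjusted p = 0.000206). Under both scalings ERBB2, counted as reversed, also newly passed the threshold. With filterByExpr, ERBB2 was -0.045 (adjusted p = 0.0303). Receptor shares from counts without length were 0.927% and 0.913% for EGFR, 95.84% and 95.73% for ERBB2 and 3.23% and 3.35% for ERBB3 (control, VIRMA-overexpressing). Of all genes, 552 were higher and 358 lower past both thresholds; the counts were 189 and 173 in a test against 2-fold, 1044 and 808 under filterByExpr, 1137 and 820 unfiltered, 930 and 689 where every library had 10 counts or more, and 4282 and 4379 at the adjusted p alone. Leaving out each library in turn gave -0.053 to 0.01 for EGFR, -0.018 to 0.011 for ERBB2, 0.03 to 0.077 for ERBB3, -1.372 to 0.474 for ERBB4 (0.153 without VIRMA-overexpressing replicate 1), -1.297 to 0.407 for EREG, -0.499 to 0.147 for BTC, -0.361 to -0.12 for AREG and -0.025 to 0.413 for HBEGF, and no member was called.

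List medians changed sign as follows, in the order upper-quartile, library totals, filterByExpr, no filter. Ligand shedding was 0.065, 0.079, 0.031 and 0.04, and PI3K-AKT 0.056, 0.07, 0.049 and 0.059, with 0.063 at 10 counts; leaving out 1 library gave -0.065 to 0.049 and -0.058 to 0.031, above 0 without VIRMA-overexpressing replicate 2. Adaptors were 0.02 and 0.034 under both scalings. With filterByExpr, no filter and at least 10 counts, FOXO genes were -0.099, -0.089 and -0.085, and transcription regulators -0.069, -0.073 and -0.055, the latter -0.005 to 0.019 when leaving out 1 library (-0.001 without control replicate 2, -0.005 without VIRMA-overexpressing replicate 2). Of the named genes, CTBP1 lost its call under both scalings, ADAM15 lost and ADAM17 gained one under both scalings and without 1 VIRMA-overexpressing library (replicate 1 for ADAM15, 2 for ADAM17), EGF gained one with library totals, ADAM10 and LRIG1 (not called) changed sign in 3 and 4 of 13 settings, and MIR4728 was between 0.56 and 0.87 and called in all 13 settings.

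The replicate numbers did not pair the samples (correlation of deviations 0.0755, 2 pairs); with the replicate block, ERBB3 was 0.053 (adjusted p = 0.064), ERBB2 -0.001 and EGFR -0.022, and no member's call changed. Depth limits ERBB4, AREG, EREG, BTC and HBEGF, whose intervals include changes of both directions, and TGFA and NRG1, for which no fold change is given.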
